A study of Solanum chacoense with 24 samples.

Results

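The genes described here are 100 leaf transcripts of the wild potato relative Solanum chacoense chosen by their measured levels in plants that received no beetles, where they were higher at each later harvest. They were taken from 32917 gene identifiers, of which 19810 averaged at least 1 CPM (counts per 1000000 counts in genes of the library) over the 12 control libraries and are called candidate genes below. For each candidate, log2(CPM + 1) was averaged per genotype and harvest, and 1197 candidates were higher at 24 h than at 0 h and higher at 48 h than at 24 h in both genotypes. The 100 of these with the largest difference between 48 and 0 h, taking for each gene the genotype with the smaller difference, are the members. The control libraries therefore chose the members, and their values in those libraries are given as a description without a test. The 12 libraries of the beetle arm played no part in the choice and carry the tests.

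Leaves were harvested from 2 genotypes, USDA8380-1 and EE501F2_093, immediately before adult Colorado potato beetles were placed (0 h) and 24 and 48 h afterwards. Each combination of genotype, arm and harvest has 2 libraries, 24 in all. The control arm stood in cages without beetles and the beetle arm in cages that received 50 beetles when the plants were 15 weeks old, so that the 0 h libraries of both arms come from plants that had not yet met a beetle. Per the labels' protocols, a genotype had 6 plants at 2 per cage, with 1 control cage and 2 treatment cages, and every library pooled leaf tissue of 1 defined position, a fully expanded leaf.

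The labels do not say which plants or cages entered which library. Cage and beetle therefore cannot be told apart within a genotype, and p-values measure only the spread between these pools. In the beetle arm, time since 0 h and beetle feeding change together, so comparisons of later harvests with 0 h there cannot tell them apart. By the protocol's counts harvests share plants. These counts also leave the 2 control libraries of a genotype at each harvest no more than 2 plants. The USDA8380-1 control libraries carry replicate numbers up to 3, and no label says what a number shares. Some libraries stand apart. The USDA8380-1 beetle 0 h library labelled replicate 3 holds 2114184 counts in genes, against 25050119 to 51999317 in the other 23 libraries, and 17.3% of its reads fell outside annotated genes, against at most 11.9% in the control libraries. The USDA8380-1 control libraries at 24 h had the lowest correlation between replicates, 0.86 across candidate genes on the log2 scale, against 0.92 to 0.97 in the other groups. The main counts that rest on these libraries are given with and without them.

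A control arm in a time course records what leaf transcripts do without the treatment. Plant leaves change many transcripts with the hour of the day, with leaf age and with handling, and such changes run in the background of any response to feeding. Colorado potato beetle is a specialist defoliator of potato and its relatives, and leaf feeding is known to alter wound and jasmonate signalling. The files hold identifiers only and pair none of them with a gene name or product, so no function is given for any member, no marker check of the leaf label was possible, and members are named by identifier, at most 2 in each direction of a comparison.

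In the control arm the mean level of the 100 members in USDA8380-1, on the log2(CPM + 1) scale, was 2.44 and 2.69 in the 0 h libraries, 4.06 and 3.65 at 24 h and 5.27 and 4.04 at 48 h. In EE501F2_093 it was 3.50 and 4.10 at 0 h, 4.67 and 4.92 at 24 h and 4.90 and 5.31 at 48 h. In both genotypes every 24 h and 48 h mean lay above both 0 h means. The 24 h and 48 h means overlapped in both, because the lower 48 h library of each genotype was below the higher 24 h library. Over all candidate genes the same mean stayed between 3.67 and 4.09 in the 24 libraries. These are pooled leaf samples, in which fewer cells of a type and less RNA per cell cannot be told apart.

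**Figure D1:**
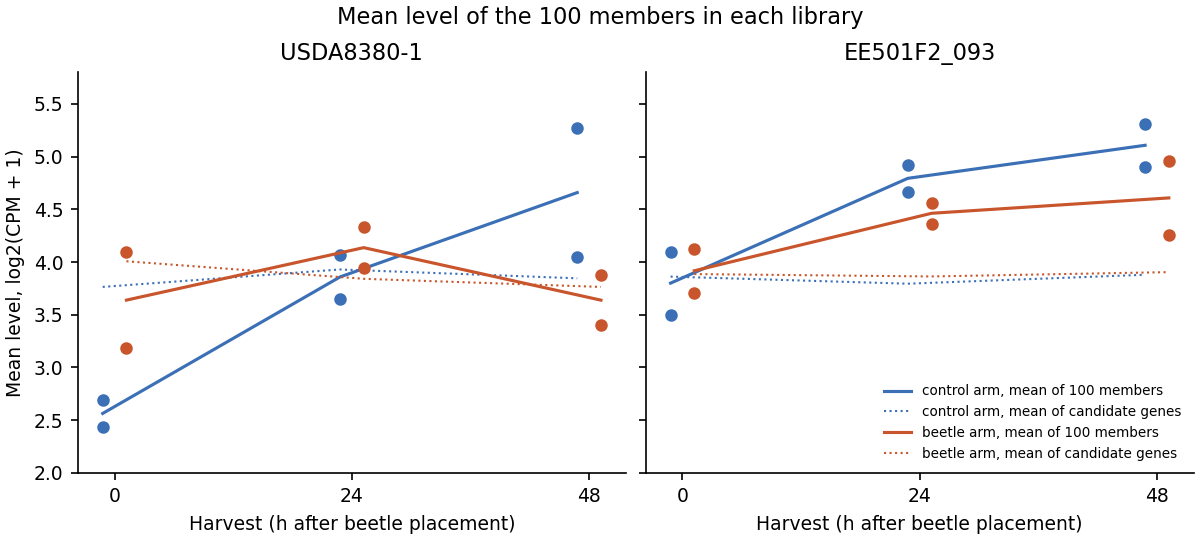
Mean level of the 100 members in each library, as log2(CPM + 1), against the harvest in hours after beetle placement, with 1 panel per genotype. Points are libraries, solid lines join the means of the 2 libraries, and dotted lines are the same means over the candidate genes. The members' means in USDA8380-1 controls run from 2.44 to 5.27, while the beetle-arm means of that genotype stay between 3.18 and 4.33.

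The difference between 48 and 0 h in controls was the quantity that ranked the genes. It had a median of 2.01 on the log2 scale in USDA8380-1, from 0.98 to 4.32, and a median of 1.23 in EE501F2_093, from 0.97 to 2.82. The medians of the candidate genes were 0.14 and 0.04. The difference was larger in USDA8380-1 for 87 of the 100 members, and so EE501F2_093 set the limit for most of them. The last member, at rank 100, had differences of 1.5 and 0.97, and the first gene outside had 1.03 and 0.96.

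Most of the control difference was present by 24 h. The median member had 64.0% of its 48 h difference by then in USDA8380-1 and 77.3% in EE501F2_093. Without the USDA8380-1 control 24 h library of replicate 2 the share in that genotype was 69.9%, and 83 members had most of the difference by 24 h. With both libraries this held for 70 members in USDA8380-1, for 91 in EE501F2_093 and for 64 in both. Another 27 members had most of the difference by 24 h in EE501F2_093 and after 24 h in USDA8380-1, while 6 showed the reverse and 3 had most of it after 24 h in both genotypes.

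The members were not drawn from the most abundant genes. Their mean level over the control libraries ran from 1.91 to 426 CPM, with a median of 18.6 CPM. The candidate genes had a median of 13.7 CPM. All 100 members also passed the filter on low counts in the beetle arm.

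Both 48 h control libraries were above both 0 h libraries for 94 members in USDA8380-1, where this held for 33.7% of the candidates, and for 92 in EE501F2_093, against 21.6%. The rule used these libraries, so the counts describe how far single libraries carry the means. Between 24 and 48 h the libraries were much less separated. Both 48 h libraries lay above both 24 h libraries for 28 members in USDA8380-1, against 10.7% of the candidates, and for 19 in EE501F2_093, against 17.8%.

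The gene at rank 1, Soltu.DM.02G031810.1, shows what a mean of 2 libraries can hide. In USDA8380-1 controls it stood at 1.17 and 0.636 CPM at 0 h, at 1.12 and 4.38 CPM at 24 h and at 90.6 and 0.287 CPM at 48 h. A single 48 h library, replicate 1, thus holds the whole 48 h difference in this genotype, and the other 48 h library is the lowest of the 6. In EE501F2_093 controls it stood at 1.23 and 13.3 CPM at 0 h, at 20.2 and 49.8 CPM at 24 h and at 33.9 and 44.3 CPM at 48 h. There all 4 later libraries were above both 0 h libraries.

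The gene at rank 2, Soltu.DM.08G024980.1, was separated by harvest in both genotypes in controls when 48 h is set against 0 h. In USDA8380-1 it stood at 0.620 and 0.668 CPM at 0 h, at 7.65 and 26.8 CPM at 24 h and at 11.1 and 19.0 CPM at 48 h. The EE501F2_093 controls gave 2.42 and 7.5 CPM at 0 h, 6.14 and 38.3 CPM at 24 h and 14.5 and 37.3 CPM at 48 h. In the USDA8380-1 beetle libraries it stood at 2.98 and 7.57 CPM at 0 h, 8.32 and 3.15 CPM at 24 h and 8.07 and 8.02 CPM at 48 h, so that the 24 h libraries overlapped with those at 0 h and the 48 h libraries lay just above them. The EE501F2_093 beetle libraries stood at 5.20 and 5.87 CPM at 0 h, 6.65 and 18.7 CPM at 24 h and 7.40 and 16.1 CPM at 48 h, so that the later libraries lay above both 0 h libraries there.

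**Figure D2:**
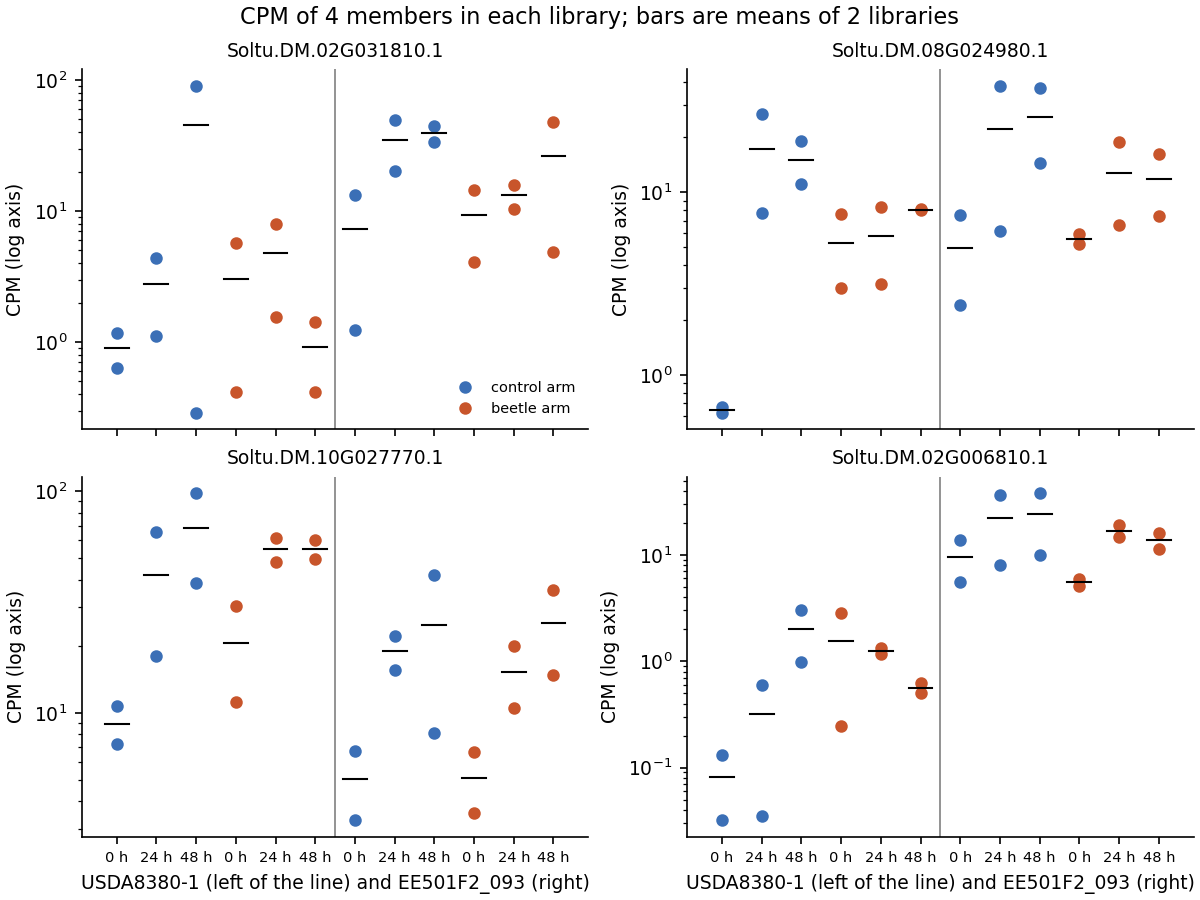
CPM on a log axis of 4 members in every library, by harvest, with USDA8380-1 left of the line and EE501F2_093 right of it. Points are libraries and bars are means of 2 libraries. In USDA8380-1 controls at 48 h Soltu.DM.02G031810.1 lies at 90.6 and 0.287 CPM, while Soltu.DM.10G027770.1 is higher at 48 h than at 0 h in both arms of both genotypes in every library pair.

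Membership depended on single control libraries. When the rule was applied without the USDA8380-1 control 48 h library of replicate 1, 59 of the 100 members were chosen again, and 70 were chosen again without the 24 h library of replicate 2 that agreed least with its partner. Leaving out both kept 47. Leaving out the EE501F2_093 control 48 h library of replicate 1 kept 30. With CPM scaled by trimmed mean of M values (TMM) factors, which adjust for library composition, 72 were kept.

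In the beetle arm no member passed the test at any comparison between harvests, but the members lay on 1 side of 0 more often than the candidates did. edgeR's quasi-likelihood test was fitted on the 12 beetle libraries and 24074 genes, and p-values were adjusted over all of them. In simulated counts for 48 h against 0 h averaged over genotypes, such a fit called 20% of 2-fold and 92% of 4-fold changes. In USDA8380-1 alone the shares were 0% and 60%. Whether these shares hold for the 12 measured beetle libraries was not tested. A missing call therefore does not show that a change is absent, and this holds for changes above 2-fold too. For 48 h against 0 h averaged over both genotypes, 82 of the 100 members had a log2 fold change above 0, against 51.4% of the candidates, with a median of 0.46. An unadjusted p under 0.05 was reached by 33 members in the direction of higher at 48 h, against 4.20% of the candidates, and by 0 members in the other direction, against 3.98%. After adjustment edgeR called 0 members and 11 genes in all, with 0.0249% of all genes called higher, and DESeq2 called 15 members higher where it called 1.24% of all genes higher.

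These counts moved with single libraries. Without the shallow library, 97 members had a log2 fold change above 0 in the same comparison. Leaving out the EE501F2_093 beetle 48 h library of replicate 2 gave 67.

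Among members averaging at least 5 CPM in the fitted libraries, to which the naming of single members is limited where none was called, the largest fold change at 48 h against 0 h was that of Soltu.DM.10G027770.1. In USDA8380-1 beetle libraries it stood at 11.2 and 30.3 CPM at 0 h, at 47.9 and 61.5 CPM at 24 h and at 49.7 and 60.4 CPM at 48 h. In EE501F2_093 it stood at 3.55 and 6.67 CPM at 0 h, at 20.0 and 10.5 CPM at 24 h and at 14.8 and 36.0 CPM at 48 h. Within each genotype the 4 later libraries were all above both 0 h libraries. The log2 fold change was 2.08 with a standard error of 0.40, and the adjusted p of edgeR's test was 0.100. That p ran from 9.51e-05 under DESeq2 to 0.546 over the alternatives tried.

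At the other end of these members, Soltu.DM.08G030040.1 had the most negative value, -0.63, with an adjusted p of 0.871 in edgeR's test. The value ran from -1.48 to -0.25 when single libraries were left out, without EE501F2_093 beetle 48 h replicate 2 and replicate 1. In EE501F2_093 its beetle libraries stood at 15.1 and 32.1 CPM at 0 h and at 6.93 and 36.4 CPM at 48 h, and in USDA8380-1 at 5.37 and 9.93 CPM and at 1.34 and 3.85 CPM. The libraries overlapped between harvests in EE501F2_093 and did not in USDA8380-1.

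The members leaned to higher values at 24 h as well, without a member passing the test. For 24 h against 0 h averaged over genotypes, 86 members had a log2 fold change above 0, against 51.9% of the candidates, with a median of 0.73. An unadjusted p under 0.05 was reached by 48 members, all higher at 24 h, against 5.91% of the candidates in that direction and 5.47% in the other. edgeR called 0 members of 32 genes after adjustment, with 0.0623% of all genes called higher, and DESeq2 called 27 members, against 1.67% of all genes called higher. Without the USDA8380-1 beetle 24 h library of replicate 1, edgeR called 16 members and 613 genes. The count above 0 was 97 without the shallow library and 76 without the other USDA8380-1 beetle 0 h library.

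Among members of at least 5 CPM that comparison had its largest value at Soltu.DM.08G026750.1. In USDA8380-1 beetle libraries this gene stood at 11.4 and 62.9 CPM at 0 h, at 43.9 and 505 CPM at 24 h and at 111 and 80.2 CPM at 48 h. In EE501F2_093 it stood at 71.7 and 103 CPM at 0 h, at 188 and 335 CPM at 24 h and at 128 and 370 CPM at 48 h. The 24 h libraries of EE501F2_093 were both above the 0 h libraries, while those of USDA8380-1 overlapped with the shallow 0 h library. The log2 fold change was 2.45 with a standard error of 0.74 and an adjusted p of 0.271 in edgeR's test, and it was 1.07 without the USDA8380-1 beetle 24 h library of replicate 2.

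The most negative of these members at 24 h, Soltu.DM.10G002160.1, stood at 80.0 and 254 CPM at 0 h and at 29.3 and 70.3 CPM at 24 h in the USDA8380-1 beetle libraries, which do not overlap. In EE501F2_093 it stood at 59.7 and 95.8 CPM at 0 h and at 70.7 and 91.3 CPM at 24 h, which overlap. Its log2 fold change was -0.67 with an adjusted p of 0.617 in edgeR's test. It was -0.21 without the shallow library, -0.39 without the USDA8380-1 beetle 24 h library of replicate 1 and -1.10 without that of replicate 2.

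From 24 to 48 h the members did not continue in 1 direction. Averaged over genotypes, 34 members had a log2 fold change above 0, against 47.9% of the candidates, with a median of -0.17. edgeR called 0 of all genes at this step, 374 genes had an unadjusted p under 0.05, and DESeq2 called 5 genes and 0 members. Among the members, 6 had an unadjusted p under 0.05 in the direction of lower at 48 h, against 0.515% of the candidates, and 0 in the direction of higher, against 0.707%. The count above 0 was 53 without the USDA8380-1 beetle 24 h library of replicate 2 and 11 without the EE501F2_093 beetle 48 h library of replicate 2.

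At that step the highest member of at least 5 CPM was Soltu.DM.09G022550.1, at 0.56, and the lowest was Soltu.DM.03G017570.1, at -1.62, both with an adjusted p of 1.00 in edgeR's test. The latter stood at 1.58 and 16.5 CPM at 24 h and at 0.596 and 2.72 CPM at 48 h in the USDA8380-1 beetle libraries, which overlap. In EE501F2_093 it stood at 17.1 and 22.4 CPM at 24 h and at 8.58 and 14.7 CPM at 48 h, which do not. The value was -0.30 without the USDA8380-1 beetle 24 h library of replicate 2, and that of Soltu.DM.09G022550.1 was 0.27 without the USDA8380-1 beetle 48 h library of replicate 2.

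**Figure D3:**
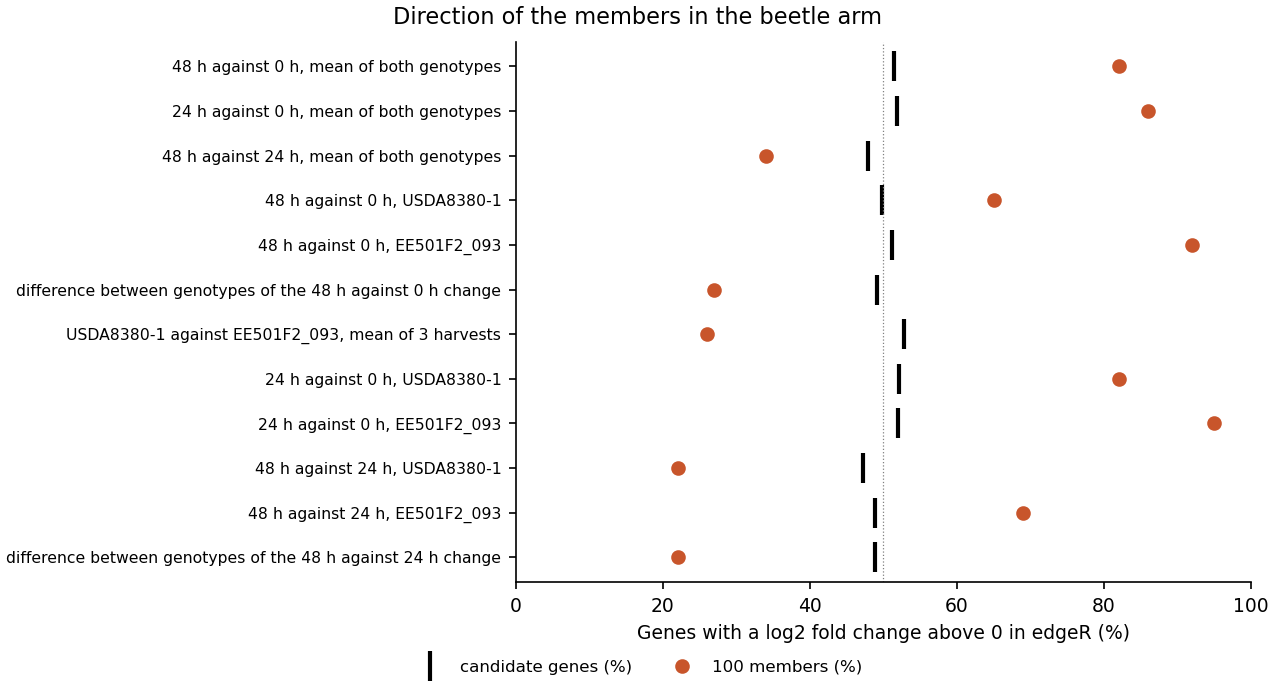
Percent of genes with a log2 fold change above 0 in edgeR's fit of the beetle arm, for each comparison. Filled points are the 100 members and black ticks are the candidate genes. The members lie at 82, 86 and 34 where the candidates lie at 51.4, 51.9 and 47.9 in the 3 comparisons averaged over genotypes.

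In EE501F2_093 most members were higher at 24 and 48 h than at 0 h in the beetle arm, though none was called. The mean over the 100 members was 3.71 and 4.12 in the 0 h libraries, 4.36 and 4.56 at 24 h and 4.26 and 4.95 at 48 h. All 4 later means were above both 0 h means. On the log2(CPM + 1) scale the difference between 48 and 0 h had a median of 0.67, from -0.42 to 2.20, and was above 0 for 92 members, against 50.4% of the candidates. For 50 members both 48 h libraries lay above both 0 h libraries, against 15.6% of the candidates, and for 0 members both lay below, against 19.9%. For 55 members both 24 h libraries lay above both 0 h libraries, against 11.7%. Between 24 and 48 h both later libraries lay above both earlier ones for 15 members, against 20.0% of the candidates. They lay below both for 7, against 10.5%.

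In edgeR's fit for EE501F2_093, 25 members had an unadjusted p under 0.05 at 48 h against 0 h, all higher at 48 h, against 2.32% of the candidates in that direction and 1.95% in the other. After adjustment edgeR called 0 genes (987 before it), and DESeq2 called 3 members, all higher, among 107 genes, with 0.353% of all genes called higher. The median log2 fold change was 0.80 with 92 members above 0, against 51.2% of the candidates. It was 0.24 without the 48 h library of replicate 2, which left 71 members above 0. At 24 h against 0 h 95 members lay above 0, against 52.1% of the candidates, with a median of 0.52. edgeR called 0 genes there, 574 genes had an unadjusted p under 0.05, of which 17 were members, all higher at 24 h, against 1.35% of the candidates in that direction and 0.975% in the other, and DESeq2 called 52 genes and 0 members. From 24 to 48 h 69 members lay above 0, against 48.9% of the candidates. edgeR again called 0 genes after adjustment and 600 before it, and DESeq2 called 2. Of the members, 2 reached an unadjusted p under 0.05 at that step, both higher at 48 h, against 1.25% of the candidates. The extreme members of at least 5 CPM there were Soltu.DM.09G005740.1, at 1.16, and Soltu.DM.10G000090.1, at -0.90, both with an adjusted p of 1.00 in edgeR's test. Without the 48 h library of replicate 2 these values were 0.26 and -0.33. For the second gene the value was -1.88 without the 48 h library of replicate 1 and -0.49 without the 24 h library of replicate 1. The step's count above 0 was 28 without the 48 h library of replicate 2.

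Among members of at least 5 CPM the largest value in EE501F2_093 at 48 h was that of Soltu.DM.05G012430.1. It stood at 8.5 and 11.6 CPM at 0 h, at 33.6 and 31.5 CPM at 24 h and at 26.4 and 90.9 CPM at 48 h. All later libraries were above both 0 h libraries. Its log2 fold change was 2.57 with a standard error of 0.59, and the adjusted p was 0.593 in edgeR's test and 0.00621 in DESeq2. Without the 48 h library of replicate 2 the log2 fold change was 1.37. In USDA8380-1 the same gene stood at 3.89 and 6.62 CPM at 0 h, at 22.4 and 9.57 CPM at 24 h and at 5.15 and 11.5 CPM at 48 h, where the 48 h libraries overlapped with those at 0 h. The lowest value of these members in EE501F2_093 was that of Soltu.DM.06G004450.1, at -0.34, with libraries at 39.5 and 26.6 CPM at 0 h and 28.9 and 24.1 CPM at 48 h. That value was 0.062 without the 0 h library of replicate 1 and -0.66 without that of replicate 2.

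In USDA8380-1 the members of the beetle arm were highest at 24 h. The mean over the 100 members was 3.18 and 4.09 at 0 h, the second value being the shallow library, 3.94 and 4.33 at 24 h and 3.40 and 3.87 at 48 h. Both 48 h means lay below both 24 h means and between the 0 h means. The group mean peaked at 24 h for 63 members, against 27.8% of the candidates, or for 81 without the shallow library, against 34.7%, and in EE501F2_093 for 34 members, against 27.7%. Both 48 h libraries were below both 24 h libraries for 40 members, against 18.4% of the candidates, and above both for 2, against 9.94%. At 48 h against 0 h both libraries were above for 26 members, against 8.70%, and below for 6, against 33.6%. At 24 h against 0 h both were above for 39 members, against 11.4%.

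The difference between 48 and 0 h in this genotype depended on the scaling and on the shallow library. On raw CPM its median was 0.01, from -1.50 to 1.94, and 51 members were above 0, against 30.0% of the candidates, whose own median was -0.26. With TMM-scaled CPM the candidates' median was 0.01, the members' median 0.26, and 63 members were above 0. edgeR's fit, which uses TMM, gave 65 members above 0, against 49.8% of the candidates, with a median of 0.32. Without the shallow library it gave 93 with a median of 0.64, and without the other 0 h library 51 with a median of 0.05.

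For 48 h against 0 h in USDA8380-1 edgeR called 0 genes after adjustment and 1846 before it. DESeq2 called 235 genes there, among them 4 members higher and 1 lower, with 0.615% of all genes called higher and 0.361% lower. Of the members, 21 had an unadjusted p under 0.05 in the direction of higher at 48 h, against 3.85% of the candidates, and 2 in the direction of lower, against 4.28%. At 24 h against 0 h 82 members lay above 0, against 52.2% of the candidates, with a median of 0.87. The count was 95 without the shallow library, with a median of 1.32, and 65 without the other 0 h library, with a median of 0.48. Without the 24 h library of replicate 2 the median was 0.55. edgeR called 7 genes and 0 members, with 0.00415% of all genes called higher. There 39 members had an unadjusted p under 0.05 in the direction of higher, against 6.26% of the candidates, and 1 in the direction of lower, against 6.18%. DESeq2 called 21 members higher, with 1.62% of all genes called higher. The extreme members of at least 5 CPM were Soltu.DM.11G021200.1, at 3.99, and Soltu.DM.10G002160.1, at -1.43, with adjusted p-values of 0.265 and 0.402 in edgeR's test. The first was 1.46 without the 24 h library of replicate 2. The second was -0.54 without the shallow library, -0.89 without the 24 h library of replicate 1 and -2.29 without that of replicate 2. Between 24 and 48 h 22 members lay above 0, against 47.3% of the candidates, and 12 had an unadjusted p under 0.05, all lower at 48 h, against 1.45%. At that step edgeR called 0 genes after adjustment and 758 before it, and DESeq2 called 8 genes and 0 members.

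Among members of at least 5 CPM the largest value in USDA8380-1 at 48 h against 0 h was that of Soltu.DM.11G021200.1. It stood at 1.30 and 1.89 CPM at 0 h, at 3.67 and 34.9 CPM at 24 h and at 8.37 and 9.12 CPM at 48 h. The 48 h libraries were close together and both above the 0 h libraries, while those at 24 h were far apart. The log2 fold change was 2.88 with a standard error of 1.03 and an adjusted p of 0.611 in edgeR's test. The lowest of these values was that of Soltu.DM.12G029070.1, at -1.99, with an adjusted p of 0.656 in edgeR's test. Its libraries stood at 4.33 and 53.4 CPM at 0 h and at 3.63 and 7.0 CPM at 48 h, and the shallow library holds the value of 53.4 CPM. Without it the log2 fold change was 0.48.

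The difference between genotypes was tested as an interaction. For the change from 0 to 48 h, USDA8380-1 minus EE501F2_093, 27 members lay above 0, against 49.2% of the candidates, with a median of -0.34. This rests on single libraries. The count was 18 without the USDA8380-1 beetle 0 h library of replicate 2, 49 with a median of -0.03 without the shallow library, and 54 with a median of 0.05 without the EE501F2_093 beetle 48 h library of replicate 2, so no direction is read from it. edgeR called 0 genes, 826 had an unadjusted p under 0.05, and DESeq2 called 5 genes and 0 members. Among the members 6 had an unadjusted p under 0.05 in the direction of a smaller change in USDA8380-1, against 1.86% of the candidates, and 2 in the other, against 1.33%. The extreme members of at least 5 CPM were Soltu.DM.11G021200.1, at 2.23, and Soltu.DM.12G029070.1, at -2.89, both with an adjusted p of 0.914 in edgeR's test. They were 1.31 without the EE501F2_093 beetle 0 h library of replicate 2 and -0.41 without the shallow library. For the change from 24 to 48 h, 22 members lay above 0, against 48.8%, with a median of -0.80, and 11 had an unadjusted p under 0.05, all in the direction of a smaller change in USDA8380-1, against 2.30%. The median was -0.33 without the USDA8380-1 beetle 24 h library of replicate 2, and -0.23 with 39 members above 0 without the EE501F2_093 beetle 48 h library of replicate 2. For that change too edgeR called 0 genes after adjustment and 1075 before it, and DESeq2 called 15 genes and 0 members. The 24 to 48 h comparison of genotypes was added after the data had been seen.

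Taking both genotypes, 47 members were higher at 48 h than at 0 h in the beetle arm in each of them, against 15.1% of the candidates, and 4 were lower in each, against 34.7%. With TMM-scaled CPM these counts were 59, against 25.2%, and 4, against 24.4%. Without the shallow library 73 were higher in each genotype, against 15.3%, and without the other USDA8380-1 beetle 0 h library 36, against 16.7%. The full pattern of the rule, higher at each later harvest in both genotypes, held in the beetle arm for 6 members on raw CPM, against 1.70% of the candidates. With TMM-scaled CPM it held for 9, against 2.78%. When the rule was applied to the beetle libraries in place of the control libraries, 335 genes rose at all 4 steps. The 6 members counted on raw CPM were among the 100 genes it chose from these.

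**Figure D4:**
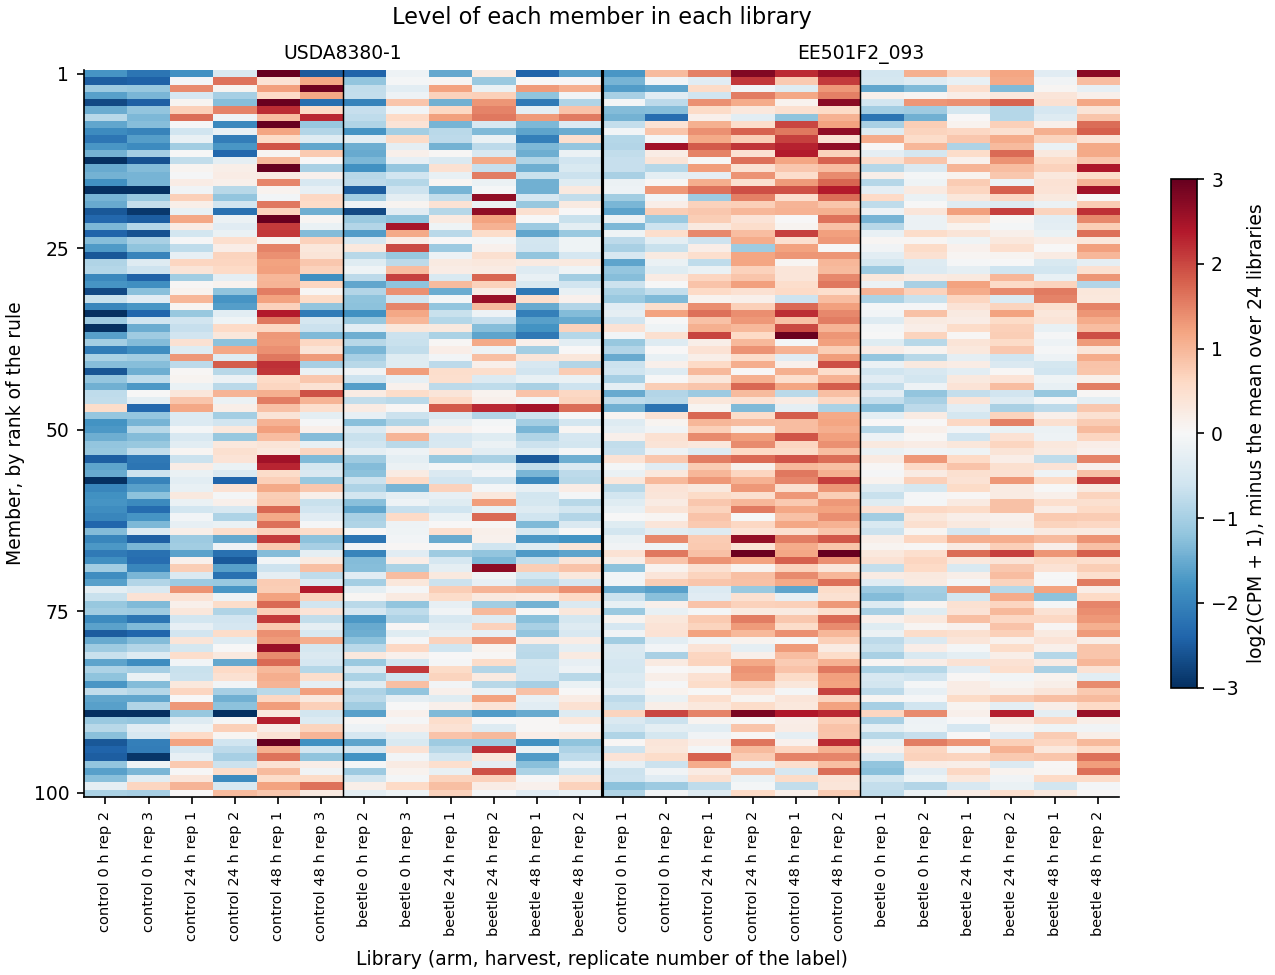
Level of each member in each of the 24 libraries, as log2(CPM + 1) minus the gene's mean over all libraries, with members in rows by rank and libraries in columns. The USDA8380-1 control 0 h columns are the lowest and the EE501F2_093 control 48 h columns are high for most members. The USDA8380-1 control 48 h column of replicate 1, with a member mean of 5.27, stands out from replicate 3, with 4.04.

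Replicates of a group were often shifted together across the members. In EE501F2_093 beetle libraries at 48 h, replicate 2 was above replicate 1 for 78 members, against 44.5% of the candidates, and in its 0 h beetle libraries for 79, against 58.9%. In USDA8380-1 controls at 48 h replicate 3 was above replicate 1 for 19 members, against 39.6%. The shallow USDA8380-1 beetle 0 h library was above its partner for 85 members, against 55.8%. A shift of this kind moves many members at once, and a count of members above 0 is therefore no count of independent observations.

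Set side by side, the members' levels in USDA8380-1 differed between the arms at 0 h, before any beetle was placed. In EE501F2_093 the library means of the arms overlapped at 48 h. These values are given side by side without a test, since the control libraries chose the members. The rule favours genes low in the control 0 h libraries and high in the control 48 h libraries. A beetle arm above the controls at 0 h and below them at 48 h therefore follows in part from the choice and is not a result. At 0 h in USDA8380-1 the beetle arm was above the control arm for 95 members, with a median of 0.94 on the log2(CPM + 1) scale, while it was above for 66.8% of the candidates, with a median of 0.27. Without the shallow library the count was 87, with a median of 0.58, against 69.8% of the candidates.

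At 24 h in USDA8380-1 the beetle arm was above for 64 members, with a median of 0.25, against 41.9% of the candidates. Without the control 24 h library of replicate 2 it was above for 56, with a median of 0.13, against 28.1%. At 48 h it was above for 6 members, with a median of -0.98, against 39.0% of the candidates. Without the control 48 h library of replicate 1, the higher of that pair, it was above for 22, with a median of -0.42, against 43.3%. In EE501F2_093 the beetle arm was above the control arm for 58 members at 0 h, against 50.6% of the candidates, for 22 at 24 h, against 57.8%, and for 16 at 48 h, against 47.8%. The members' medians there were 0.04, -0.36 and -0.56.

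The plot of both arms' differences shows each member once per genotype. The rule chose large control differences, so where the members lie relative to equal differences follows in part from the choice and is not a result.

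**Figure D5:**
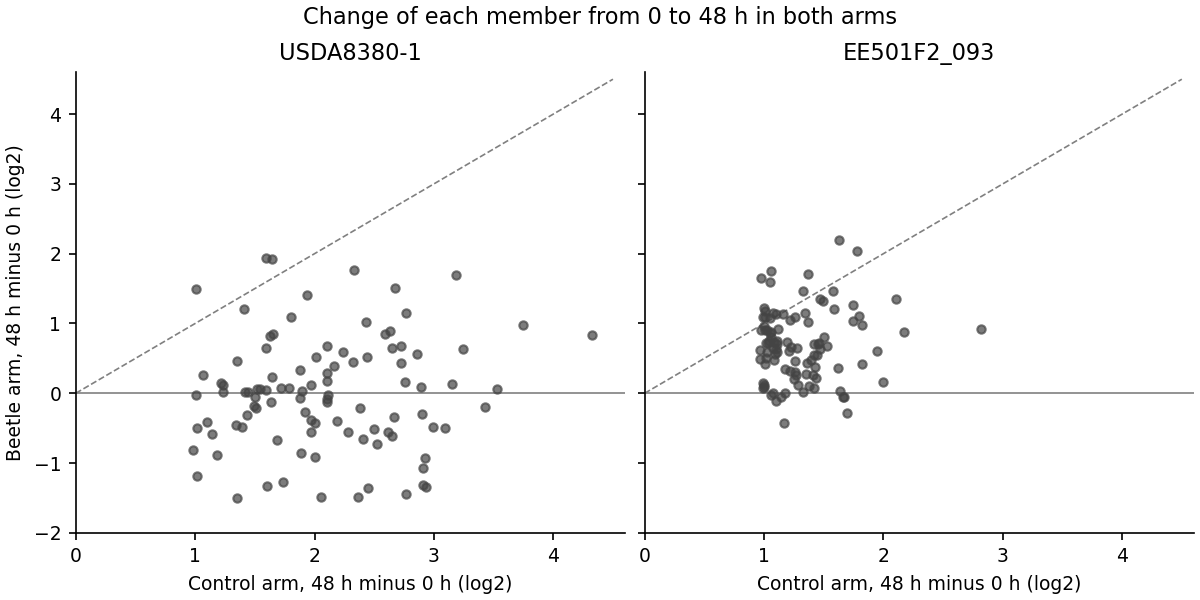
Difference in log2(CPM + 1) between 48 and 0 h of each member in the control arm (horizontal axis) and in the beetle arm (vertical axis), 1 panel per genotype, with 1 point per member. The dashed line marks equal differences. The beetle-arm differences run from -1.50 to 1.94 in USDA8380-1 and from -0.42 to 2.20 in EE501F2_093.

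The levels of 34 members, which the rule did not use beyond its minimum, differed between genotypes. In the beetle arm, averaged over the 3 harvests, edgeR called 29 members lower and 5 higher in USDA8380-1 than in EE501F2_093, where it called 9.86% of all genes lower and 9.99% higher. The median log2 fold change was -0.50, and 26 members lay above 0, against 52.8% of the candidates. DESeq2 called 36 members lower and 6 higher, where it called 12.8% of all genes lower and 12.7% higher. The number of members called moved when single libraries were left out, and 24 to 33 members lay above 0 in those fits. Control libraries, which chose the members, gave 15 members above 0 with a median of -0.78, against 46.5% of the candidates with a median of -0.04. Whether reads of the 2 genotypes align equally well to the annotated genes was not tested.

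The member with the largest genotype difference was Soltu.DM.02G006810.1. In USDA8380-1 beetle libraries it stood at 0.248 and 2.84 CPM at 0 h, at 1.32 and 1.16 CPM at 24 h and at 0.506 and 0.623 CPM at 48 h. In EE501F2_093 beetle libraries it stood at 5.12 and 5.90 CPM at 0 h, at 14.6 and 19.3 CPM at 24 h and at 11.3 and 16.0 CPM at 48 h. Every EE501F2_093 library was above every USDA8380-1 library. The log2 fold change was -3.72 with a standard error of 0.41 and an adjusted p of 0.000253 in edgeR's test. In controls the ranges were also apart, with 0.0318 to 3.05 CPM in USDA8380-1 and 5.57 to 38.1 CPM in EE501F2_093.

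The rank 1 gene Soltu.DM.02G031810.1 was second in that direction, with a log2 fold change of -2.85, a standard error of 0.78 and an adjusted p of 0.0274 in edgeR's test. Its beetle libraries stood at 0.413 and 5.68 CPM at 0 h, 1.55 and 7.98 CPM at 24 h and 0.417 and 1.42 CPM at 48 h in USDA8380-1. In EE501F2_093 they stood at 4.08 and 14.5 CPM, 10.4 and 15.9 CPM, and 4.84 and 47.8 CPM. The ranges of the genotypes overlapped, and over the alternatives the adjusted p of this gene ran from 0.00207 to 0.0797, so that its call was lost when some single libraries were left out.

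In the opposite direction Soltu.DM.12G007710.1 was higher in USDA8380-1, with 23.6 and 20.3 CPM at 0 h, 73.6 and 97.9 CPM at 24 h and 116 and 65.4 CPM at 48 h. In EE501F2_093 it stood at 7.60 and 11 CPM, 15.7 and 9.55 CPM, and 11 and 35.4 CPM. At each harvest both USDA8380-1 libraries were above both EE501F2_093 libraries. The log2 fold change was 2.05 with a standard error of 0.33 and an adjusted p of 0.00203 in edgeR's test. Soltu.DM.10G027770.1, whose values are given above, followed with a log2 fold change of 1.67 and an adjusted p of 0.00539 in edgeR's test.

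The members were spread over the genome as far as the identifiers show it. Read from the digits of the identifiers, they lay on all 12 chromosomes, from 5 on chromosome 9 to 13 on chromosome 6, which is 0.315% of the candidates on chromosome 1 at the lowest and 0.762% on chromosome 6 at the highest. There were 4 pairs of members within 5 identifier steps of each other, 2 on chromosome 2 and 1 each on chromosomes 11 and 12, which hold 8 members in all. Of the 122 other candidates next to a member by identifier, 53 were higher at 48 h than at 0 h in controls of both genotypes, and 43.2% of all candidates were. Their median differences were 0.15 in USDA8380-1 and 0.10 in EE501F2_093. Where near-identical copies lie side by side, the counting could split their reads, and no annotation was at hand to tell.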

How the data were processed

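The authors deposited 24 tables of raw counts of reads per gene, 32917 identifiers each, with 5 summary lines kept out of all totals and fits (7.66% to 17.3% of a library's reads fell outside genes). Per the labels' protocols the libraries were stranded mRNA, sequenced as single reads of 50 nt. Per the submitters' processing notes Trimmomatic 0.35, STAR 2.7.3a, Picard and HTSeq were used; the genome build, annotation and settings are not stated in the sources used here. No identifier was paired with a name.

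CPM used summed gene counts, and log2 levels a pseudocount of 1. The 12 beetle libraries were fitted with edgeR 4.0.16 (TMM, filterByExpr, quasi-likelihood, 6 groups, no block) in R 4.3.3, with Benjamini-Hochberg adjustment over 24074 genes and calls at 0.05; DESeq2 1.42.0 was an alternative. Of the 12 comparisons 5 were added after seeing the data. The scripts were tested on simulated data. Members and comparisons were chosen with earlier results of these data known. Named members are ranks 1 and 2 of the rule and, per comparison and direction, up to 2 called members with the largest fold change, or, with none called, the largest with at least 5 CPM. Alternatives were another scaling, pseudocount, filter or fit, a replicate block and each library left out. Library sizes of 2114184 to 51999317 counts set the precision. Differences in log2(CPM + 1) of low genes are understated by the pseudocount, which the fitted fold changes do not use. The control arm was not tested because it chose the members.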

Additional observations from a re-analysis of the deposited data

Results flagged for a closer look

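Dixon's criterion was applied to 36 sets of 4 libraries, the libraries at 0 h of a genotype taken over both arms. In 7 sets one library stood far from the other libraries, which chance alone gives for about 1 in 20 independent sets. Here the sets reuse the same libraries, and many of the genes were named for fold changes that use the beetle 0 h libraries. The count of 7 is therefore not read against that rate. The shallow USDA8380-1 beetle 0 h library of replicate 3 was the high library in 6 of the 7 sets. It stood at 5.68 CPM for Soltu.DM.02G031810.1, where the other libraries were at 0.413 to 1.17 CPM. For Soltu.DM.08G026750.1 it stood at 62.9 CPM, where the lowest library was at 9.83 CPM. For Soltu.DM.03G017570.1 it stood at 11.4 CPM and for Soltu.DM.12G029070.1 at 53.4 CPM. For Soltu.DM.02G006810.1 it stood at 2.84 CPM and for Soltu.DM.09G005740.1 at 5.20 CPM. With 2114184 counts, a value of 2.84 CPM rests on 6 reads.

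The seventh was the EE501F2_093 control 0 h library of replicate 2, at 13.7 CPM for Soltu.DM.02G006810.1, where the other libraries of that set were at 5.12 to 5.90 CPM. Outside the main measurement, 17.3% of the reads of the USDA8380-1 beetle 0 h library of replicate 3 fell outside annotated genes, above the highest control value of 11.9%. The part of these library properties in the members' values was not tested.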

How the results depend on the processing

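Of 663 alternatives to the counts, 572 stayed within 1.5 times the value given and 91 did not. The 572 include counts of 0 that stayed at 0 and settings that could not change a value, so they are no measure of stability. Of 442 for named members, 423 kept direction and call, mostly by staying uncalled. Another 7 lost the call, 7 gained it and 5 turned direction. The cause of these moves was not tested. Where edgeR called few genes, DESeq2 called more. For 48 h against 0 h averaged over genotypes it called 427 genes and 15 members, and without the filter on low counts edgeR called 110 and 4. For 24 h against 0 h DESeq2 called 647 genes and 27 members, and no filter gave 149 and 5. By genotype DESeq2 called 235 genes and 5 members at 48 h against 0 h in USDA8380-1 and 107 and 3 in EE501F2_093. At 24 h against 0 h it called 685 and 21 in USDA8380-1, where no filter gave 27 genes, and 52 genes in EE501F2_093. From 24 to 48 h DESeq2 called 5 genes on average, 8 in USDA8380-1 and 2 in EE501F2_093, and 5 and 15 genes for the genotype differences of the 0 to 48 h and 24 to 48 h changes. With all 24 libraries in 1 fit edgeR called 1 gene at 48 h against 0 h, 20 genes and 1 member at 24 h, and 2 genes at 24 h in USDA8380-1.

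The deviations of same-numbered beetle libraries across candidate genes correlated from -0.32 to 0.34 over 10 pairs of groups. Since not every pair exceeded 0.1 and no label says what a number shares, the numbers were not taken to pair samples. In the EE501F2_093 groups replicate 2 was above replicate 1 for 58 to 86 of the 100 members, against 39.1% to 61.0% of the candidates. In the beetle 24 h group it was above for 62 members, close to the candidates' 59.0%. With the replicate number as a block edgeR called 0 genes at 48 h against 0 h, 7 at 24 h and 1 at 24 h in USDA8380-1, and 62 members in place of 27 lay above 0 for the genotype difference of the 0 to 48 h change, which turned its median to 0.20.

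Leaving out single beetle libraries gave 0 to 114 genes and 0 to 1 member at 48 h against 0 h, and 4 to 613 genes and 0 to 16 members at 24 h. By genotype it gave 1 to 647 genes and 0 to 13 members at 24 h in USDA8380-1, 0 to 213 genes and 0 to 1 member at 48 h there, and 0 to 11 genes at 48 h in EE501F2_093. From 24 to 48 h in USDA8380-1 it gave 0 to 4 genes, and for the genotype differences 0 to 5 genes (0 to 48 h) and 0 to 1 gene (24 to 48 h). Members above 0 from 24 to 48 h ran from 11 to 53 on average, 16 to 38 in USDA8380-1 and 28 to 73 in EE501F2_093, and for the genotype differences from 18 to 54 and from 15 to 39. Members higher in both genotypes ran from 36 to 73, and from 27 to 72 for genes rechosen without a control library. Leaving out a control library kept 30 to 94 of the members, and leaving out 2 kept 47. Directions turned for Soltu.DM.12G029070.1 in USDA8380-1 at 48 h against 0 h, to 0.82 with the block, and single libraries left out gave -2.94 to 0.48. They also turned for Soltu.DM.06G004450.1 at 48 h in EE501F2_093 (-0.66 to 0.062, the latter without beetle 0 h replicate 1), Soltu.DM.08G030040.1 at 24 h in EE501F2_093 (-0.81 to 0.13, the latter without beetle 0 h replicate 2) and Soltu.DM.03G017570.1 from 24 to 48 h in USDA8380-1 (-3.79 to 0.19, the latter without beetle 24 h replicate 2).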
